A study of Mus musculus with 72 samples.

Results

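Surfactant and alveolar type 2 (AT2) genes were followed in the lungs of irradiated mice through 10 genes: *Sftpa1*, *Sftpb*, *Sftpc* and *Sftpd*, which encode the surfactant proteins, and *Napsa*, *Lamp3*, *Abca3*, *Lpcat1*, *Slc34a2* and *Etv5*. The products of *Napsa*, *Lamp3* and *Abca3* process surfactant proteins or form the lamellar body, *Lpcat1* encodes an enzyme of surfactant lipid synthesis, *Slc34a2* the phosphate transporter of the AT2 cell and *Etv5* a transcription factor of that cell. The genes were chosen by name, 10 of the 23787 genes named through RefSeq, and their accessions gave 12 of the 56605 probes on the array. *Sftpb* and *Napsa* had 2 probes each. Female C57BL/6 J mice aged 6 to 8 weeks received whole-body X-ray irradiation (WBI) from a small animal irradiator at 1.05 Gy per min, at 12, 8, 4, 2 or 1 Gy, or were sham-irradiated (0 Gy). Lung and liver were collected 48 h later. Each dose had 3 mice, so the lung comparison rests on 18 single-colour mRNA arrays, and the 18 liver arrays of the same doses served as a reference tissue that has no AT2 cells. No group carried a transgene, and RNA came from the whole lung, so all cell types of the organ contributed to each value.

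AT2 cells line the alveolus beside the flat type 1 cells, make and secrete surfactant, and can divide to replace type 1 cells after injury. Surfactant lowers surface tension in the alveolus. Its lipids, mainly phosphatidylcholine, are loaded into lamellar bodies by the transporter ABCA3, and its small hydrophobic proteins SP-B and SP-C are cut from larger precursors on the way there. SP-A and SP-D are secreted collectins that bind microbes and help to regulate surfactant.

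All 10 genes were well above background on all 18 lung arrays, and all 10 were higher in lung than in liver at 0 Gy, where 26% of the 47376 probes tested over both tissues were higher in lung. The AT2 markers thus matched the tissue label. Lung arrays lay on 3 slides, read from the array numbers in the file headers. Slide A held all 0 and 1 Gy arrays, slide B held the 2 and 4 Gy arrays with 8 Gy mice 5 and 15, and slide C held 8 Gy mouse 25 with the 3 arrays at 12 Gy. Slide C was dimmer: 54.1% to 54.8% of its spots were well above background, against 59.2% to 64.0% on slides A and B. For 2 Gy and above, a difference from 0 Gy therefore cannot be told apart from a difference between slides. The lung of 4 Gy mouse 24 stood apart in another way, with a mean of 13.61 (log2) over 10 hepatocyte genes against 7.98 to 11.79 on the other lung arrays. Leaving it out kept the same members called at 12 Gy and in the dose trend. Values below are log2 of the normalized intensity, a fold change is the difference of 2 dose means on that scale (log2FC), and a call is a Benjamini-Hochberg adjusted p below 0.05 in limma over all lung probes.

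None of the 10 members was called at 1, 2, 4 or 8 Gy. At 12 Gy, 3 of 10 were called: *Abca3* was higher, and *Lpcat1* and *Sftpb* were lower, where 13.5% of all probes were higher and 7.81% lower. The share of all 43979 lung probes called was 0.025% at 1 Gy, 0.555% at 2 Gy, 2.18% at 4 Gy, 4.25% at 8 Gy and 21.4% at 12 Gy, so 3 of 10 was near the share of all probes at that dose. At an unadjusted p below 0.05 there were 0, 1, 4 and 3 members at 1, 2, 4 and 8 Gy, against 5.52%, 7.67%, 13.9% and 16.4% of all probes. With the added requirement of an absolute log2FC above 1, which the study used, 1 member was called at 12 Gy (*Sftpb*), against 7.29% of probes. In whole tissue, changes in the number of AT2 cells, in RNA per AT2 cell and in other cells of the lung cannot be told apart.

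A linear trend over dose, given here as the log2 change across the 12 Gy span, was called for 4 members. *Lpcat1*, *Sftpb* and *Sftpa1* decreased, and *Abca3* increased, where 30.7% of all probes were called, 19.7% higher and 11% lower. The median trend of the 10 members was -0.02, against 0.08 over all probes. A test of any difference among the 6 doses called 2 members, *Lpcat1* and *Abca3*, against 14% of all probes. Quantile normalization holds the overall distribution of the arrays equal. Setting the arrays level at the 75th percentile alone moved the median of all probes to 0.25 at 12 Gy, 0.11 at 4 Gy, 0.10 at 8 Gy and 0.23 in the trend. With that scaling 10999 probes increased and 3459 decreased in the trend, against 8653 and 4847, and at 12 Gy 7872 were higher and 2521 lower, against 5958 and 3434. 

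**Figure D1:**
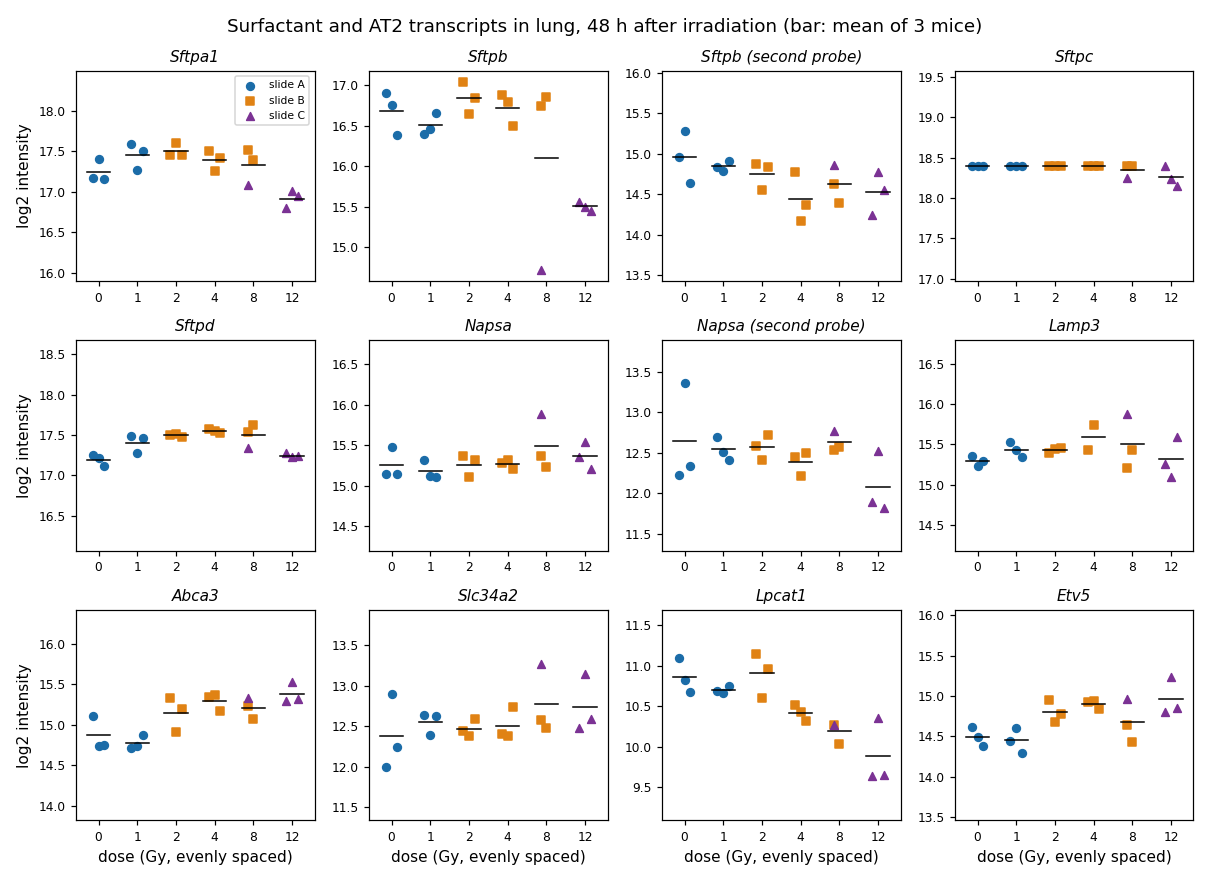
Log2 normalized intensity (vertical axis) of the 12 probes of the 10 genes in the lung against dose in Gy (horizontal axis, evenly spaced), 1 point per mouse coloured by slide, with a bar at the mean of each dose. *Lpcat1* steps down from 4 Gy, the brighter *Sftpb* probe is low on the 4 arrays of slide C only, and *Sftpd* lies above the 0 Gy arrays at 1 to 8 Gy and returns to their range at 12 Gy.

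The promoters of the 4 members with a called trend are shown because these trends differed in direction in the fit without slide. With slide as a term none of the 4 was called. Their trends were then -1.41 for *Lpcat1*, 0.38 for *Sftpb*, -0.01 for *Abca3* and -0.10 for *Sftpa1*. Each window runs from 250 bases before to 50 bases after the RefSeq start site on GRCm38.p6, all on the plus strand of their chromosomes: *Lpcat1* at chr13:73466981-73467280, *Sftpb* at chr6:72304360-72304659, *Abca3* at chr17:24351773-24352072 and *Sftpa1* at chr14:41131538-41131837. Capitals mark matches to the motifs searched on both strands, and all other bases are in lower case.
Lpcat1: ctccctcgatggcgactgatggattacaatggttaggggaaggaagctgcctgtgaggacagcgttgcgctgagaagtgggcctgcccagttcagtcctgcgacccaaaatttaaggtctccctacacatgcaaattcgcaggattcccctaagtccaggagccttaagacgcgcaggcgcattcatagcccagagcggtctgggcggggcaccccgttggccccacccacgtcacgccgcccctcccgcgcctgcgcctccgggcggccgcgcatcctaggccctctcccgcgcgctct
Sftpb: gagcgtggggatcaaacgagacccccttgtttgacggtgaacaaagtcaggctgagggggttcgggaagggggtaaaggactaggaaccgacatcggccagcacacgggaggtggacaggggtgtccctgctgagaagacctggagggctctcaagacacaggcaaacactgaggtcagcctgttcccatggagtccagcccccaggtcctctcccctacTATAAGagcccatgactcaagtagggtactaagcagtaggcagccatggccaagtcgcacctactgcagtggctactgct
Abca3: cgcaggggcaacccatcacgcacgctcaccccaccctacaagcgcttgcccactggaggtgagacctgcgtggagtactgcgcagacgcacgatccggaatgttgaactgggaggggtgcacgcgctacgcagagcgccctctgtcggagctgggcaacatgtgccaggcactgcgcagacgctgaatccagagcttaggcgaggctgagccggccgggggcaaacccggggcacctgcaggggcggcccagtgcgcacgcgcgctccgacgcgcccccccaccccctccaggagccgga
Sftpa1: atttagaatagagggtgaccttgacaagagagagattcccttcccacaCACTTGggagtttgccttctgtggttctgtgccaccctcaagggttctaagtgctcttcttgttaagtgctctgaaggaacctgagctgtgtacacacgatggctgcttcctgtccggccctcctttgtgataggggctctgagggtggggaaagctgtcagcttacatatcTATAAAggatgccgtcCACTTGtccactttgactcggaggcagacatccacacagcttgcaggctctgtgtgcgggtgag

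In *Sftpa1* the NKX2 motif CAAGTG, which the lung factor NKX2-1 can bind, was found on the minus strand at positions -202 and -14 from the start site. A TATA motif (TATAAA or TATAAG) began at position -30 in both *Sftpa1* and *Sftpb*. The windows of *Lpcat1* and *Abca3* held no match to these motifs, to the FOX motif (TGTTTAC or TATTTAC), to the ETS motif CCGGAAGT or to the p53 half-site. None of the letter sets overlapped another in these windows. Of 32851 RefSeq promoter windows of the same length in this table, 13.6% held the NKX2 motif, 18.8% the TATA motif, 6.54% the FOX motif, 3.89% the ETS motif and 8.36% the p53 half-site. Windows were found for 7 of the 10 members. Among the other 3 of these, *Lamp3* and the first of 2 *Etv5* windows held a FOX motif and *Slc34a2* held none of the motifs. A match is a description of the letters and was not tested for binding.

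*Lpcat1*, whose enzyme rebuilds lysophosphatidylcholine into the saturated phosphatidylcholine of surfactant, was called lower both at 12 Gy and in the trend. Its values were 11.09, 10.82 and 10.68 at 0 Gy, 10.69, 10.66 and 10.75 at 1 Gy, and 11.14, 10.61 and 10.96 at 2 Gy. They were 10.51, 10.42 and 10.32 at 4 Gy, 10.26, 10.03 and 10.26 at 8 Gy, and 9.63, 10.36 and 9.65 at 12 Gy. All mice at 4, 8 and 12 Gy were below all mice at 0 Gy, and 1 mouse at 12 Gy lay near the 8 Gy level.

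At 12 Gy the log2FC of *Lpcat1* was -0.98 ± 0.19 (SE, 3 mice against 3; limma adjusted p = 0.0031), which is 1.97-fold lower. At 8 Gy it was -0.67 ± 0.19 (adjusted p = 0.067), and the trend over dose was -1.01 ± 0.16 (adjusted p = 1.5e-04). The 12 Gy call was kept in all 18 fits that left out 1 lung array, with log2FC from -1.22 to -0.86. *Lpcat1* could also be compared within slide B, where 8 Gy was lower than 2 Gy by a log2FC of -0.76 ± 0.22 in a fit with slide as a term (unadjusted p = 0.0039; adjusted p = 0.24), against 0.5% of probes called there. With slide as a term its trend was -1.41 ± 0.37 (unadjusted p = 0.0014, adjusted p = 0.19). Without the 4 arrays of slide C it was -1.10 ± 0.25 (adjusted p = 0.019), a slope fitted over 0 to 8 Gy and scaled to 12 Gy. In that fit 0 and 1 Gy still lay on slide A and 2 to 8 Gy on slide B. The other slide-term contrasts of *Lpcat1* were -0.16 ± 0.20 for 1 against 0 Gy, -0.27 ± 0.22 for 8 against 4 Gy, -0.38 ± 0.28 for 12 against 8 Gy, -0.65 ± 0.35 for 12 against 4 Gy and -1.14 ± 0.35 for 12 against 2 Gy, and none was called.

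*Sftpb* encodes SP-B, the small hydrophobic protein without which the surfactant film does not form. Its brighter probe read 16.91, 16.76 and 16.39 at 0 Gy, 16.40, 16.46 and 16.66 at 1 Gy, and 17.04, 16.65 and 16.84 at 2 Gy. It read 16.88, 16.80 and 16.50 at 4 Gy, 16.74, 16.85 and 14.72 at 8 Gy, and 15.56, 15.50 and 15.45 at 12 Gy. The 4 low values were the 4 arrays of slide C, at 2 different doses, and the lowest of all was 8 Gy mouse 25.

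For this probe the log2FC at 12 Gy was -1.18 ± 0.39 (SE, 3 mice against 3; limma adjusted p = 0.041), and the trend was -1.19 ± 0.31 (adjusted p = 0.0071). The 12 Gy call was lost in 11 of the 18 fits that left out 1 array, each fit without a 0, 1 or 12 Gy array and those without 2 Gy mouse 23 or 4 Gy mouse 14, with adjusted p up to 0.099. Without the 4 arrays of slide C the trend, fitted over 0 to 8 Gy and scaled to 12 Gy, was 0.26 ± 0.27 (adjusted p = 0.66). With slide as a term 12 Gy was above 8 Gy by 0.78 ± 0.23 (adjusted p = 0.22). At 8 Gy, mouse 25 on slide C differed from the mean of the 2 mice on slide B by -2.08, and 1.15% of all probes differed as much between these arrays. The low values of this probe thus lay on slide C at both of its doses, and the 8 Gy array there was below all 3 at 12 Gy. The 12 Gy call was also lost with 75th percentile scaling (log2FC -1.04, adjusted p = 0.057), without a filter on dim probes (adjusted p = 0.052), with slide as a random block (-0.87, adjusted p = 0.32) and in the fit of both tissues (-1.28, adjusted p = 0.052).

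The second *Sftpb* probe did not show these values. It read 14.96, 15.28 and 14.63 at 0 Gy, 14.63, 14.38 and 14.86 at 8 Gy, and 14.25, 14.78 and 14.56 at 12 Gy, so the doses overlapped, and 8 Gy mouse 25 was 0.36 above the mean of its slide B pair. Its log2FC at 12 Gy was -0.43 ± 0.20 (SE, 3 mice against 3; limma adjusted p = 0.14). The probes of *Sftpb* shared their direction at 12 Gy and differed in the call, and the array of mouse 25 was low on 1 probe only.

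*Sftpa1* encodes SP-A, a collectin that binds microbes and surfactant lipid. It read 17.18, 17.41 and 17.16 at 0 Gy, and between 17.09 and 17.60 at 1 to 8 Gy. At 12 Gy it read 16.80, 17.01 and 16.95, below every array of every other dose. Its trend was -0.40 ± 0.14 (limma adjusted p = 0.032), and its log2FC at 12 Gy was -0.33 ± 0.15 (SE, 3 mice against 3; adjusted p = 0.12). The next lowest array was 8 Gy mouse 25 at 17.09, so the 4 lowest values were again those of slide C. Without slide C the trend, fitted over 0 to 8 Gy and scaled to 12 Gy, was 0.16 ± 0.21 (adjusted p = 0.74). With 75th percentile scaling of all arrays the trend was -0.30 ± 0.16 (adjusted p = 0.17). The call of *Sftpa1* was therefore lost with the other scaling and without that slide, and also without 1 Gy mouse 2 or any 1 of the 12 Gy mice (lowest size -0.31, adjusted p up to 0.13).

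*Sftpd*, the gene of the related collectin SP-D, had a different shape. It read 17.26, 17.22 and 17.11 at 0 Gy, 17.49, 17.27 and 17.46 at 1 Gy, and 17.50, 17.51 and 17.47 at 2 Gy. It read 17.57, 17.55 and 17.53 at 4 Gy, 17.53, 17.63 and 17.34 at 8 Gy, and 17.28, 17.22 and 17.24 at 12 Gy. At each of 1, 2, 4 and 8 Gy all 3 mice were above all 3 mice at 0 Gy, while at 12 Gy the values overlapped those at 0 Gy.

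None of these differences was called: the largest, at 4 Gy, was 0.35 ± 0.12 (SE, 3 mice against 3; limma adjusted p = 0.16), and at 12 Gy the log2FC was 0.05 ± 0.12. Groups without overlap were common, at 13.1%, 15.8%, 19.4%, 17.5% and 34.9% of all probes from 1 to 12 Gy, and 1, 4, 5, 2 and 5 members had them. The 4 comparisons share the same 0 Gy mice. In the fit of lung and liver arrays together *Sftpd* was called at 4 and at 8 Gy.

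*Sftpc*, the gene of SP-C and the marker most particular to AT2 cells, could not be followed well on this scale. Its spot was the second brightest of all probes on 15 of 18 arrays and the fifth at its lowest, and quantile normalization gives a probe of fixed rank a nearly fixed value. Thus 15 arrays read 18.39 or 18.40, and 8 Gy mouse 25 and 12 Gy mice 16 and 26 read 18.24, 18.24 and 18.15. Scaled to the 75th percentile, the same probe ranged from 17.97 to 18.69, with 18.37, 18.38 and 18.34 at 0 Gy and 18.04, 18.48 and 17.97 at 12 Gy. Its spot intensity was 374861 to 418006 on slides A and B and 183239 to 190947 on slide C, and no spot was flagged as saturated.

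The log2FC of *Sftpc* at 12 Gy was -0.13 ± 0.11 (SE, 3 mice against 3; limma adjusted p = 0.42) after quantile normalization. The 12 Gy arrays lay on both sides of the 0 Gy arrays when scaled to the 75th percentile. Neither scale gave a called difference at any dose.

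**Figure D2:**
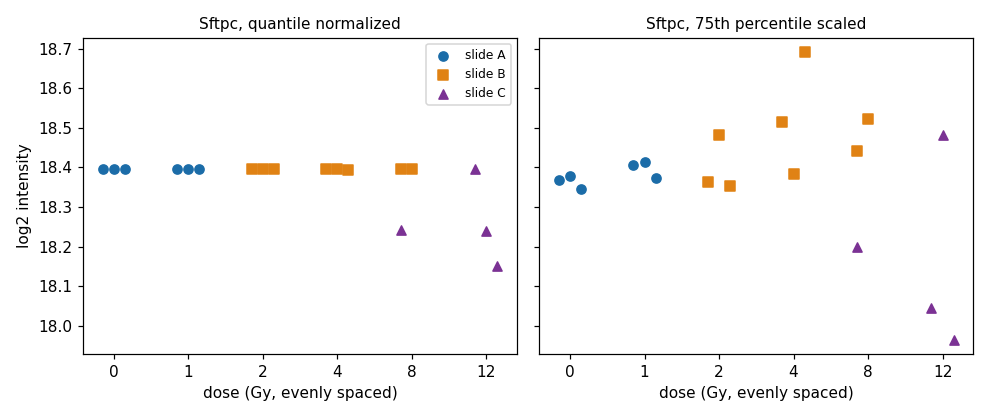
*Sftpc* in each lung array under quantile normalization and under 75th percentile scaling (log2 intensity against dose in Gy, 1 point per mouse, coloured by slide). Quantile normalization places 15 of 18 arrays at 18.39 or 18.40, and the other scaling spreads the same arrays from 17.97 to 18.69.

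*Abca3* encodes the transporter that carries phospholipid into the lamellar body. It read 15.11, 14.74 and 14.75 at 0 Gy, 14.71, 14.74 and 14.88 at 1 Gy, and 15.33, 14.91 and 15.19 at 2 Gy. It read 15.34, 15.37 and 15.17 at 4 Gy, 15.23, 15.07 and 15.33 at 8 Gy, and 15.29, 15.53 and 15.32 at 12 Gy. All mice at 4 and 12 Gy were above all mice at 0 Gy, and 2 of the 3 at 8 Gy were.

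At 12 Gy the log2FC of *Abca3* was 0.51 ± 0.15 (SE, 3 mice against 3; limma adjusted p = 0.026), or 1.42-fold, and the trend was 0.50 ± 0.14 (adjusted p = 0.012). The 12 Gy call was lost without 0 Gy mouse 11 (adjusted p = 0.090), 0 Gy mouse 21 (0.089) or 12 Gy mouse 16 (0.091), with log2FC from 0.43 to 0.63 over the 18 fits. With slide as a term the trend was -0.01 ± 0.28. The step in *Abca3* lay between slide A, which averaged 14.82, and slides B and C, at 15.20 and 15.37. Within slide B, 8 Gy and 2 Gy differed by 0.01 ± 0.16.

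*Etv5*, an ETS factor that maintains the AT2 state downstream of fibroblast growth factor (FGF) signalling, read 14.61, 14.49 and 14.38 at 0 Gy and 14.80, 15.23 and 14.85 at 12 Gy. Between them it read 14.45, 14.61 and 14.29 at 1 Gy, 14.96, 14.68 and 14.78 at 2 Gy, 14.93, 14.94 and 14.84 at 4 Gy, and 14.64, 14.43 and 14.96 at 8 Gy. All mice at 2, 4 and 12 Gy lay above those at 0 Gy, and those at 8 Gy overlapped them. The log2FC at 12 Gy was 0.47 ± 0.16 (SE, 3 mice against 3; limma adjusted p = 0.051), just outside the threshold, and it passed under 75th percentile scaling at 0.64 ± 0.19 (adjusted p = 0.025). Under that scaling the median of all probes at 12 Gy was 0.25, and *Etv5* lay 0.38 above it. The log2FC of *Etv5* at 12 Gy also passed without 8 Gy mouse 15, 8 Gy mouse 25 or 12 Gy mouse 6, at 0.47, 0.47 and 0.55. Its trend was 0.37 ± 0.15 (adjusted p = 0.068), and with slide as a term it turned to -0.45 ± 0.28 (adjusted p = 0.86), with 8 Gy below 4 Gy by a log2FC of -0.36 ± 0.16.

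*Slc34a2*, which takes up phosphate at the surface of AT2 cells, read 12.00, 12.90 and 12.24 at 0 Gy and 12.48, 13.14 and 12.59 at 12 Gy. Its highest value was 13.27 in 8 Gy mouse 25. The doses overlapped throughout, and the log2FC at 12 Gy was 0.36 ± 0.25 (SE, 3 mice against 3; limma adjusted p = 0.33). Its trend of 0.36 ± 0.19 (adjusted p = 0.16) passed with 75th percentile scaling, at 0.59 ± 0.21 (adjusted p = 0.035), and was -0.19 ± 0.43 with slide as a term. The median trend of all probes was 0.23 with 75th percentile scaling, against 0.08 with quantile normalization.

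*Napsa*, the gene of napsin A, an aspartic protease that takes part in the processing of the SP-B precursor, read 15.14, 15.47 and 15.15 at 0 Gy and 15.35, 15.54 and 15.20 at 12 Gy on its brighter probe. Its second probe read 12.22, 13.37 and 12.34 at 0 Gy and 11.89, 12.53 and 11.82 at 12 Gy, which gave a log2FC of -0.56 ± 0.26 (limma adjusted p = 0.13). The brighter probe gave 0.11 ± 0.17 (adjusted p = 0.70). Neither probe was called at any dose, and each had its widest dose through 1 mouse: mouse 25 at 8 Gy (15.88) on the brighter probe and mouse 11 at 0 Gy (13.37) on the second.

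*Lamp3*, a membrane protein of lamellar bodies and lysosomes, read 15.35, 15.24 and 15.29 at 0 Gy and 15.26, 15.10 and 15.59 at 12 Gy. At 4 Gy it rested on 2 mice, since the spot of mouse 24 carried an outlier flag and was left missing in the fit. Its highest value was 15.87 in 8 Gy mouse 25. The log2FC at 12 Gy was 0.02 ± 0.17 (SE, 3 mice against 3; limma adjusted p = 0.95).

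The array of 8 Gy mouse 25 thus held the highest lung values of *Slc34a2*, *Napsa* (brighter probe) and *Lamp3* and the lowest of *Sftpb* (brighter probe). Against its slide B pair these differences were 0.74, 0.59, 0.55 and -2.08, sizes reached by 17.1%, 26.9%, 30.3% and 1.15% of all probes. Leaving this mouse out kept the calls of *Abca3*, *Lpcat1* and *Sftpb* at 12 Gy and added *Etv5*.

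**Figure D3:**
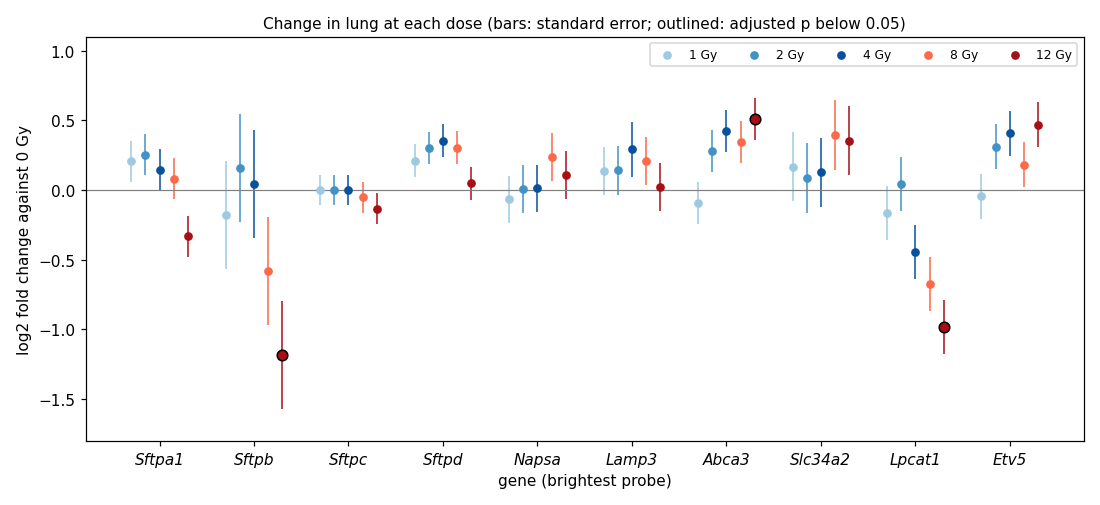
Log2FC against 0 Gy in the lung (vertical axis) of each member (horizontal axis, brighter probe), with each of the 5 radiation doses in its own colour. Bars are SE of the limma fit, with 3 mice per dose, and called values are outlined in black. *Lpcat1* lies at 0.04 at 2 Gy and falls from 4 Gy to -0.98 at 12 Gy, *Sftpb* falls to -1.18 at 12 Gy with the widest bars, and *Abca3* and *Etv5* lie at 0.51 and 0.47 at 12 Gy.

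Comparisons in a fit with slide as a term called none of the 10 members: not 1 against 0 Gy (0.0409% of all probes called), not 4 or 8 against 2 Gy (0.0091% and 0.5%), not 8 against 4 Gy (0.0136%), not 12 against 2, 4 or 8 Gy (0.346%, 0.105% and 0.366%), and not the trend (0.305%). At an unadjusted p below 0.05, *Lpcat1* was lower at 4 Gy than at 2 Gy by a log2FC of -0.49 ± 0.20 (unadjusted p = 0.026; adjusted p = 0.75). *Lpcat1* was also lower at 8 and at 12 Gy than at 2 Gy (unadjusted p = 0.0039 and 0.0061). *Etv5* was lower at 8 Gy than at 4 Gy (unadjusted p = 0.040, adjusted p = 1.00). *Napsa* and *Lamp3* were lower at 12 Gy than at 8 Gy by -0.52 ± 0.19 and -0.55 ± 0.20 (unadjusted p = 0.017 for each, adjusted p = 0.38 for each). *Lamp3* was lower at 12 Gy than at 4 and 2 Gy by -0.82 ± 0.27 and -0.67 ± 0.26 (unadjusted p = 0.0093 and 0.023). The brighter *Sftpb* probe was higher at 12 Gy than at 8, 4 and 2 Gy by 0.78 ± 0.23, 0.85 ± 0.29 and 0.73 ± 0.29 (unadjusted p = 0.0038, 0.010 and 0.023), against the direction of its fit without slide. In this fit 12 Gy is set against the lower doses through mouse 25 alone, the only 8 Gy array on that slide.

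Deviations from the dose means, over the 18 arrays and 45 pairs of members, were most alike for *Lpcat1* and *Abca3* (Pearson r = 0.85) and most opposed for *Sftpb* and *Lamp3* (r = -0.69). Over all 18 arrays, with the dose means kept in, *Lpcat1* and *Abca3* gave r = -0.37. Mice of 1 dose that were high in 1 of these lipid genes were thus high in the other, while the dose means moved apart. The points share slides and normalization, and the pairs were picked as the extremes.

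In liver, *Sftpb* (brighter probe) and *Slc34a2* were not well above background on any of 18 arrays, so only a bound can be given for lung at 0 Gy: at least 3326-fold and at least 179-fold higher, each with a limma adjusted p from the fit of both tissues (1.3e-18 and 4.5e-12). *Sftpc*, *Sftpa1*, *Sftpd* and *Napsa* were 1796-fold, 1345-fold, 859-fold and 225-fold higher in lung. The *Sftpc* fold is imprecise, since its liver values at 0 Gy had an SD of 1.83 (log2, n = 3). The second *Napsa* probe gave 154-fold, with 1 of 3 liver arrays at 0 Gy above background. The fit gave 31.8-fold for *Lpcat1*, but only 1 of 3 liver arrays at 0 Gy was above background, so this fold rests mostly on dim liver spots, and *Etv5* was 29.1-fold higher. *Lamp3* was 13.4-fold higher. *Abca3* had the smallest difference, 3.36-fold (log2 14.73 ± 0.18 in lung and 12.98 ± 0.05 in liver, SD, n = 3; limma adjusted p = 1.3e-11). The 10 genes therefore ranged from lung transcripts near or below background in liver to *Abca3*, which was bright in both tissues.

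The dose trend in lung could be set against that in liver for the 4 members above background on all 36 arrays. For *Abca3* the trend was 0.43 ± 0.13 in lung and -0.11 ± 0.13 in liver, and the lung minus liver difference was 0.53 ± 0.18 (limma adjusted p = 0.035), where 16.5% of all probes had a called difference. *Sftpd*, *Lamp3* and *Etv5* had differences of 0.08 ± 0.24, -0.02 ± 0.21 and -0.02 ± 0.20, with adjusted p of 0.86 to 0.96. *Napsa* and *Sftpa1* passed the same test, at 2.26 ± 0.43 (adjusted p = 5.1e-04) and -1.61 ± 0.40 (adjusted p = 0.0055), but their liver spots were not above background on every array. In liver the 0 and 1 Gy arrays shared 1 slide with 2 of the 2 Gy arrays, and 2 of the 3 arrays at 12 Gy lay on lung slide A, so slide moved with dose in both tissues, and its part in this difference was not tested.

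**Figure D4:**
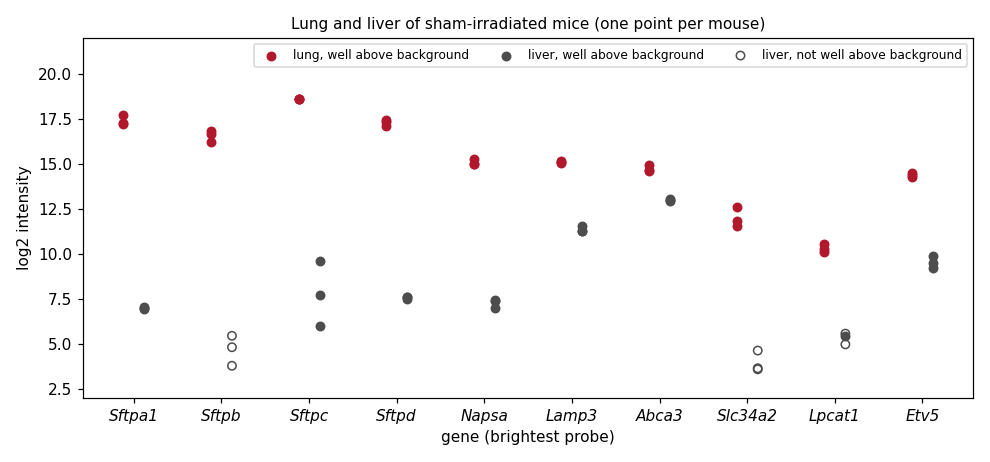
Log2 intensity (vertical axis) of the brighter probe of each member (horizontal axis) in lung and in liver at 0 Gy, both tissues normalized together, 1 point per mouse, with open circles for liver spots not well above background. Lung lies above liver for every member, between tissue means by 3.36-fold for *Abca3* and by at least 859-fold for the 4 surfactant protein genes at 0 Gy.

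Around the 10 members, lists of related genes were counted in the same fit. Of 24 other genes of AT2 cells, 10 decreased and 1 increased in the dose trend, against 11% and 19.7% of all probes, with a median trend of -0.19. *Acoxl*, an acyl-CoA oxidase-like gene, had a trend of -0.98 ± 0.14 (limma adjusted p = 8.0e-05), *Il33*, an alarmin cytokine made by AT2 cells, -1.37 ± 0.22 (adjusted p = 2.7e-04), and *Cxcl15*, the lung chemokine lungkine, -0.72 ± 0.15 (adjusted p = 0.0022). *Lyz1*, a lysozyme of AT2 cells, had -1.28 ± 0.30, and *Egfl6*, *Fabp5*, *S100g*, *Scd1*, *Ppp1r14c* and *Cd74* also decreased, with trends of -0.79 to -0.39. *Ctsh*, the cathepsin that trims the SP-B and SP-C precursors, increased by 0.56 ± 0.13 (adjusted p = 0.0029). With slide as a term none of the 24 was called, where only 0.305% of all probes were called. Without slide C, where fewer of all probes were called too, 2 decreased and 1 increased. At 12 Gy 6 of the 24 were lower and 1 was higher, against 7.81% and 13.5% of all probes.

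*Cd74* is also a gene of B cells and macrophages. In the same trend 12 of the 14 B-cell genes and 11 of the 13 T-cell genes measured decreased, against 11% of all probes. With slide as a term 3 of the 14 and 2 of the 13 were called lower, where 0.305% of all probes were called. Over the 5 B-cell genes above background on every array the mean level was 11.35 to 12.30 at 0 Gy and 8.97 to 9.17 at 12 Gy. Over 9 such T-cell genes it was 10.37 to 11.99 at 0 Gy and 8.27 to 8.86 at 12 Gy. *Ms4a1*, which marks B cells, averaged 12.31 at 0 Gy and 6.46 at 12 Gy, a larger difference than that of any member. The part of this shift in the AT2 genes was not tested.

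Among 12 transcription factors of the alveolar epithelium, 3 increased and 1 decreased in the trend, near the 19.7% and 11% of all probes. *Nkx2-1*, which switches on the surfactant genes, had a trend of -0.78 ± 0.26 (limma adjusted p = 0.029), with a log2FC of -0.48 ± 0.30 at 12 Gy (adjusted p = 0.28). *Sox9*, *Nfib* and *Grhl2* increased by 0.72 ± 0.16, 0.81 ± 0.19 and 0.46 ± 0.12 (adjusted p = 0.0028, 0.0034 and 0.0059). Among 10 tested genes of FGF receptor and ETS signalling, the pathway upstream of *Etv5*, 5 increased and none decreased, against 19.7% and 11% of all probes: *Spry1* by 0.73 ± 0.15, *Etv4* by 0.83 ± 0.19 and *Etv1* by 0.59 ± 0.15, and *Fgf7* and *Spry2* by 0.42 and 0.38. *Spry1* and *Spry2* are feedback inhibitors of the pathway and *Etv1* and *Etv4* are, like *Etv5*, factors it induces. With slide as a term none of the named factors or pathway genes was called, where only 0.305% of all probes were called.

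Of 16 genes of surfactant lipid synthesis, 4 increased and 1 decreased, near the shares of all probes (19.7% and 11%). *Abca1*, a cholesterol and phospholipid exporter, increased by 0.94 ± 0.19 (limma adjusted p = 0.0013), the desaturase *Scd2* by 0.65 ± 0.14 (adjusted p = 0.0021), the phosphatidate phosphatase *Lpin1* by 0.61 ± 0.17 and the elongase *Elovl5* by 0.46 ± 0.15. *Scd1*, which is on the AT2 list too, decreased by 0.39. Of 17 genes of precursor processing, lamellar body traffic, secretion and clearance, 5 increased and 3 decreased, against the same shares. The increases were *Ctsh*, *Hps1* (0.57 ± 0.13) and *Ap3b1* (0.37 ± 0.12), which serve lysosome-related organelles, *Vamp8* (0.54 ± 0.12), a vesicle fusion protein, and *Pgc* (0.63 ± 0.21), a protease. The decreases were *Csf2ra* (-0.69 ± 0.18), a receptor chain for the cytokine that drives surfactant clearance by macrophages, *Anxa7* (-0.51 ± 0.16) and *Pla2g15* (-0.56 ± 0.19), a lysosomal phospholipase. The median trends were 0.05 and 0.23 for these 2 lists, against 0.08 over all probes.

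Of 17 genes of the damage-associated transitional state between AT2 and type 1 cells, 5 increased and 1 decreased, against 19.7% and 11% of all probes. *Cdkn1a*, the p53-induced cell-cycle inhibitor, increased by 2.88 ± 0.38 in the trend (limma adjusted p = 3.1e-05), and *Ccn2*, *Ndrg1*, *Clu* and *Krt8* by 1.25, 0.51, 0.51 and 0.36. *Tnip3* decreased by 0.89 (adjusted p = 1.8e-04). Of 17 p53 targets, *Cdkn1a* among them, 15 increased in the trend, with *Phlda3* at 1.64 ± 0.15. At 12 Gy 14 of the 17 were higher, against 13.5% of all probes.

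Markers of other lung cells were counted in the same trend, where 19.7% of all probes were called higher and 11% lower. The lists were not tested against each other, and slide moved with dose in all of these counts. Of 13 type 1 cell genes 3 increased and 1 decreased: the trends were 0.62, 0.53 and 0.52 for *Rtkn2*, *Hopx* and *Pdpn* and -1.30 for *Sema3a*. Of 9 club-cell genes 3 increased (*Scgb3a2* by 0.67, *Aldh1a1* by 0.42 and *Scgb3a1* by 0.49), and of 10 ciliated-cell genes 4 increased (*Dynlrb2* by 0.89). Of 12 macrophage genes 1 increased and 4 decreased, among them *Itgax* at -0.65 ± 0.14, with a median trend of -0.52. Endothelial cells had 1 increase and 2 decreases of 11, fibroblasts 1 and 1 of 10, and hepatocyte genes 1 increase of 15 (*Tat*). Genes of proliferating cells decreased in 7 of 20 cases in the trend and in 15 of 20 at 12 Gy, against 7.81% of all probes at 12 Gy. The mean of the 15 above background on every array was highest, at 9.71, on the array of 0 Gy mouse 21, which also had the highest T-cell mean.

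**Figure D5:**
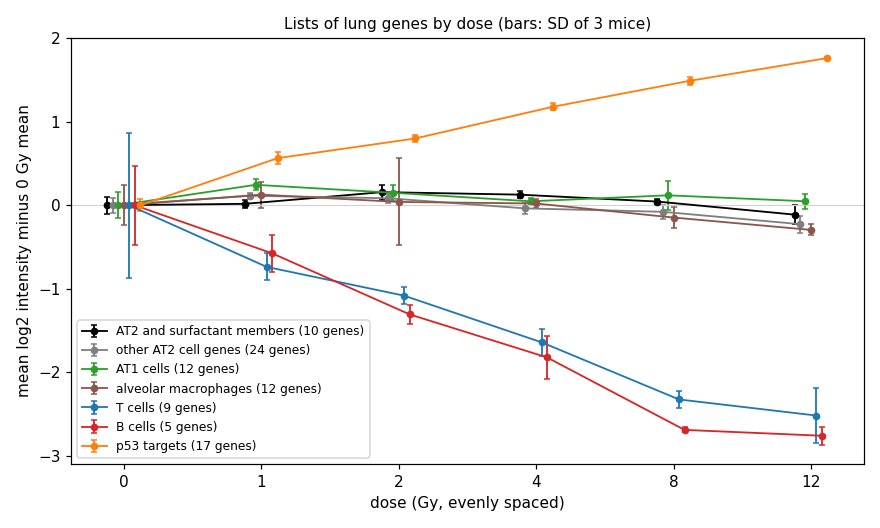
Mean log2 intensity in the lung, minus its 0 Gy mean (vertical axis), of the genes of 7 lists that were above background on every lung array, against dose in Gy (horizontal axis, evenly spaced), with points at the means and bars for the SD of 3 mice. Between 0 and 12 Gy the means go from 11.85 to 9.09 for B-cell genes, from 11.00 to 8.49 for T-cell genes and from 11.07 to 12.84 for p53 targets. The other lists move less: from 15.27 to 15.16 for the members, 13.31 to 13.09 for other AT2 genes, 14.21 to 14.26 for type 1 cell genes and 12.81 to 12.51 for macrophage genes.

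Over the 18 lung arrays, the mean standardized profile of the members was lowest in 12 Gy mouse 26 (-0.72) and 0 Gy mouse 21 (-0.69) and highest in 2 Gy mouse 3 (0.58). All 2 and 4 Gy arrays were above 0, and the 0 and 12 Gy arrays were all below it. Of 19864 other genes, those with the most similar profile were *Obox1* (Pearson r = 0.86, Spearman rho = 0.79), *Atp6v1c2* (r = 0.82, rho = 0.76) and *Cyp4v3* (r = 0.81, rho = 0.75). *AA619741*, *Slc7a14*, *B3gnt4*, *Cndp2*, *Gm29796*, *Teddm2* and *Prrt1* followed, with r of 0.78 to 0.81. The 18 arrays share slides and controls, and without slide C the r of these 10 genes were 0.63 to 0.87. For *Cyp4v3* the likeness lay mostly between doses, since within doses its r was 0.16.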

How the data were processed

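Total RNA of lung and liver was hybridised to single-colour Agilent mouse arrays of 56605 non-control probes. The deposited scanner files, made by the authors with Agilent Feature Extraction 11.5.1.1, hold spot intensity and local background intensity, which were used here, and a processed intensity and a series value table, used as alternatives. The deposited values of that table follow the processed intensity divided by 1 number per array, with an SD over probes of at most 0.02 (log2). In the lung 54.1% to 64.0% of spots were well above background per array; 3 arrays per dose limit the precision.

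The median spot intensity was background-corrected (normexp, offset 0), outlier spots were set missing, and the 18 lung arrays were quantile normalized and log2 transformed. A probe was kept if well above background on at least 1 array in at least 0.5 of its spots, which left 43979. limma 3.58.1 in R 4.3.3 compared each dose with 0 Gy, fitted a linear dose trend and an F test over the 6 doses, and adjusted p-values by Benjamini-Hochberg over all kept probes; errors are SE. Lung and liver were compared in 1 fit of all 36 mRNA arrays (47376 probes). miRNA arrays were not used here. Accessions named 34566 probes. Nothing in the labels beyond the mouse number tells whether same-numbered lung and liver came from 1 mouse.

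Other genes were named by rule: members by their brightest probe, the 3 genes of each list with the smallest trend p, list genes whose trend passed, and the 10 most similar profiles. The members and lists were chosen with earlier results of these data known. The fit was tested on simulated data. Alternatives covered background offset, scaling, filter, outlier spots, probe averaging, slide, mouse block, both tissues together and leaving out arrays.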

Additional observations from a re-analysis of the deposited data

Results flagged for a closer look

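Among the 4 members well above background on all 36 lung and liver arrays, the dose trend of *Abca3* differed between the tissues by a test of the difference itself: the lung minus liver difference was 0.53 ± 0.18 (log2 over 12 Gy; limma adjusted p = 0.035), with a trend of 0.43 ± 0.13 in lung and -0.11 ± 0.13 in liver. With slide as a term the lung trend of *Abca3* was -0.01 ± 0.28. Slide moved with dose in both tissues, and its part in the difference was not tested. *Napsa* (2.26 ± 0.43) and *Sftpa1* (-1.61 ± 0.40) also passed this test of the tissue difference, with liver spots that were not above background on every array. Over all probes 16.5% had a called difference.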

How the results depend on the processing

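Of 354 values of called results under the alternatives, 319 kept their direction and their side of the threshold, 31 lost the threshold and 4 reversed. Of uncalled results, 26 values passed the threshold. The 354 values include the lung minus liver differences at 0 Gy of all 12 probes, so they do not measure the dose calls alone. In the 18 fits without 1 lung array, the 12 Gy call was kept in 18 for *Lpcat1*, 15 for *Abca3* and 7 for *Sftpb*. Values smaller than their own SE were given no direction; of 926 such values 87 changed sign, none past the threshold. Leaving out the 4 slide C arrays and the within-slide contrasts were chosen after seeing the data.

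At 12 Gy, 3 members were called; 2 were called without a filter or with both tissues together (*Sftpb* lost), 4 with offset 50, the processed signal, the series values, the stricter filter or outlier spots kept (*Etv5* gained), 3 with 75th percentile scaling (*Sftpb* lost, *Etv5* gained), 1 with slide as a random block, and 1 to 4 when 1 lung array was left out (any dose: 1 and 1 to 4), with *Abca3* and *Sftpb* lost without 0 Gy mouse 11, 0 Gy mouse 21 or 12 Gy mouse 16. At 8 Gy, none was called, but 1 with the stricter filter, the authors' series values, offset 50, outlier spots kept or without slide C (*Lpcat1*), or with both tissues together (*Sftpd*), and 0 to 1 when 1 array was left out (*Lpcat1* without 12 Gy mouse 16). At 4 Gy, 1 (*Sftpd*) was called with both tissues together. By the study's rule 1 member was called, against 0 with 75th percentile scaling, without a filter, with probes averaged or with slide as a random block, 2 with the series values or outlier spots kept, and 0 to 1 when 1 array was left out. The F test called 2 members, against 1 without a filter or with the processed signal, 4 with offset 50, 0 with slide as a random block or without slide C, and 1 to 5 when 1 array was left out, with 5 without 8 Gy mouse 25. The trend called 4, against 0 with slide as a fixed term 1 without slide C, 3 with slide as a random block or both tissues together (*Sftpa1* lost), 5 with offset 50 (*Etv5* gained) or 75th percentile scaling (*Slc34a2* and *Etv5* gained, *Sftpa1* lost), and 3 to 5 when 1 array was left out; with the processed signal or the series values *Etv5* took the place of *Sftpa1*.

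With slide as a fixed term the trends of *Abca3*, *Etv5*, *Napsa*, *Slc34a2*, *Sftpb* and *Sftpc* were -0.012, -0.45, -0.30, -0.19, 0.38 and 0.012. Without slide C those of *Sftpa1*, *Sftpb* and *Sftpc* were 0.16, 0.26 and 1.3e-05. With probes averaged the *Napsa* trend was -0.10. The second *Sftpb* probe reversed at 8 Gy with the series values (0.040) and the processed signal (0.021), and in the trend with the processed signal (0.025). *Sftpb* at 8 Gy was -0.58; it was 0.12 without slide C and ranged from -0.95 to 0.11 when 1 array was left out, 0.11 being without mouse 25. The cause of these changes was not tested.

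Over all lung probes, slide as a random block lowered the calls from 244 to 32 at 2 Gy, 958 to 258 at 4 Gy, 1869 to 762 at 8 Gy, 9392 to 1794 at 12 Gy and 13500 to 8700 in the trend; slide as a fixed term left 134 in the trend, and leaving out slide C 2334, with 465 at 2 Gy and 1742 at 4 Gy. At 1 Gy the 11 calls became 8 to 96 over the settings other than leaving out 1 array.

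Over 18 pairs of lung and liver arrays with the same mouse number, the correlation of deviations from the group means was -0.06 to 0.09. Of 18 arrays, 2 correlated best with their own number. Organs of 1 mouse need not share such deviations, so these values do not tell whether the numbers mark the same mouse. With mouse number as a replicate block, 10 members differed between lung and liver at 0 Gy and, of the 4 above background on all 36 arrays, 1 in the trend, as without it.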

Other observations

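In liver, where *Napsa* was close to background, its brighter probe was well above background on all 6 arrays at 0 and 1 Gy and on none of the 12 arrays at 2 to 12 Gy. It read 6.97 to 7.42 at 0 Gy, 5.75 to 6.73 at 1 Gy, and 4.23 to 4.72 at 8 Gy, with a liver dose trend of -2.07 ± 0.30 (limma adjusted p = 1.7e-05). The second *Napsa* probe was above background on 1 of 18 liver arrays. *Sftpa1* was above background on 17 of 18 liver arrays, at 6.94 to 7.05 at 0 Gy and 7.41 to 7.82 at 12 Gy, with a trend of 0.94 ± 0.29 (adjusted p = 0.035). *Sftpc* was above background on 10 of 18 liver arrays, and read 5.97 to 9.62 at 0 Gy, the widest range among the 12 probes at 0 Gy in liver. Slide moved with dose in liver too, and its part in these values was not tested.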
